A study of Mus musculus with 6 samples.

Results

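Aminoacyl-tRNA synthetases are the enzymes that join each amino acid to its tRNA, and the values below describe their RNA in mouse tumour macrophages. The members were taken by symbol from the deposited table: 20 cytosolic synthetase genes, 16 mitochondrial synthetase genes, and the 3 scaffold proteins of the cytosolic multisynthetase complex, Aimp1, Aimp2 and Eef1e1. All 39 were among the 21878 genes of the table, and all 39 were among the 12136 genes with enough reads to test. No measured value was a criterion, but the members were chosen with earlier results of these data known.

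RNA was sequenced in bulk from macrophages sorted by fluorescence out of MC38 tumours, grown from a mouse colon carcinoma line injected 14 days before. The 3 KO libraries came from mice with floxed Trmt61a alleles and LysM-Cre, a recombinase that the Lyz2 locus drives in the myeloid lineage. The 3 WT libraries were from floxed mice that lacked Cre, so both groups carried the floxed alleles and the tumour. Age, sex, the sorting gate and which exons are floxed were not given here. Replicates are numbered 1 to 3 in each group without a statement that each is a separate mouse, and a p-value here covers only library-to-library spread, some of it perhaps technical. Trmt61a encodes the catalytic subunit of the methyltransferase that makes m1A, a methylated adenosine, in tRNAs, and Trmt6 encodes its partner subunit. The comparison asks which RNAs differ in tumour macrophages once that tRNA methyltransferase gene is deleted.

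Each synthetase activates its amino acid with ATP and passes it to the end of the matching tRNA, which the ribosome then uses. The enzymes fall into class I and class II by the fold of their catalytic domain. Several cytosolic synthetases sit together in a large complex held by the scaffold proteins, others act outside it, and most mitochondrial synthetases come from separate nuclear genes. Kars and Gars each also supply a mitochondrial form. In mammalian cells many cytosolic synthetase genes are targets of ATF4, the transcription factor of the amino acid response, and Wars is known as an interferon-induced gene.

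Library totals ran from 18839026 to 20313597 counts in the KO libraries and from 19622763 to 20247004 in the WT libraries. Trmt61a itself was at 2.13, 1.73 and 2.46 CPM (the reads of a gene relative to the scaled library total) in the KO libraries, against 8.01, 6.95 and 7.38 CPM in the WT libraries. Every KO value lay below every WT value (log2 fold change -1.81, SE 0.197, edgeR adjusted p = 0.0426), but the call held in only 1 of the 6 fits that each left out a library, the one without KO replicate 2. Trmt6 was at 28.4, 29.2 and 28.4 CPM in KO and at 31.1, 30.7 and 30.1 CPM in WT (log2 -0.095, SE 0.0771, edgeR adjusted p = 0.807). KO replicate 2 stood apart on the first principal component, at -29.4, with the other 5 between -5.26 and 18. The 10 macrophage markers were tested and abundant, summing to 13000 ± 1085 CPM in KO and 13530 ± 684 CPM in WT (SD, n = 3 each). The 8 tested of 9 T and NK cell markers summed to 14.5, 46.0 and 19.8 CPM in the KO libraries and 14.2, 17.3 and 23.5 CPM in the WT libraries, with KO replicate 2 highest for all 8. Neutrophil markers, 7 tested of 11, summed to 153 ± 25.9 CPM in KO and 101 ± 17.1 CPM in WT. Of those 7, 0 were called by edgeR and 4 were higher in KO at an unadjusted p under 0.05, beside 3.86% of all genes tested. Ltf, with 3 to 25 counts a library, and Mmp8 were higher in every KO library than in any WT library. This order held for 6.11% of all genes, and the other tested neutrophil markers overlapped. Mmp9 was at 125, 46.8 and 64.8 CPM in KO and 47.7, 30.7 and 40.2 CPM in WT. Log2 fold changes were positive for 6 and negative for 1, Retnlg (-0.29). Of the 4 not tested, Ly6g, Camp and Elane had 0 to 3 counts in every library, and Cxcr2 had 7, 33 and 3 counts in the KO libraries and 5, 0 and 2 in the WT libraries. The part of these markers in the members' values was not tested. In bulk libraries, fewer cells of a type and less RNA per cell cannot be told apart.

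No member passed the test between KO and WT. With edgeR, 0 of 39 had an adjusted p under 0.05, where 0.0165% of all genes tested were called, all of them lower in KO. DESeq2 called 0 of 39 too, where it called 0.0659% of all genes higher and 0.173% lower in KO, and limma-voom called 0 of 39. At an unadjusted p under 0.05 edgeR had 1 member, Rars2, which was lower in KO, and across all genes 3.06% were lower and 3.86% higher at that level, 6.92% in all. Log2 fold changes were positive for 18 members and negative for 21, with a median of -0.0085, beside 49.8% positive, 50.2% negative and a median of -0.00088 over all genes tested. The fitted fold change was within 1.2-fold for 37 of the 39 members, the exceptions being Rars2 and Lars2.

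The precision differed between the compartments. For all 20 cytosolic synthetases the 95% interval of the fold change lay between 0.801 and 1.25, which bounds each of their differences closely. Of the 16 mitochondrial synthetases, 10 had an interval within 1.5-fold in either direction, and all 3 scaffold genes did. KO and WT libraries did not overlap for 4 members. Lars2 was the one with KO higher, where 6.11% of all genes had that order, and Rars, Farsb and Rars2 were the ones with KO lower, where 6.3% of all genes did.

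**Figure D1:**
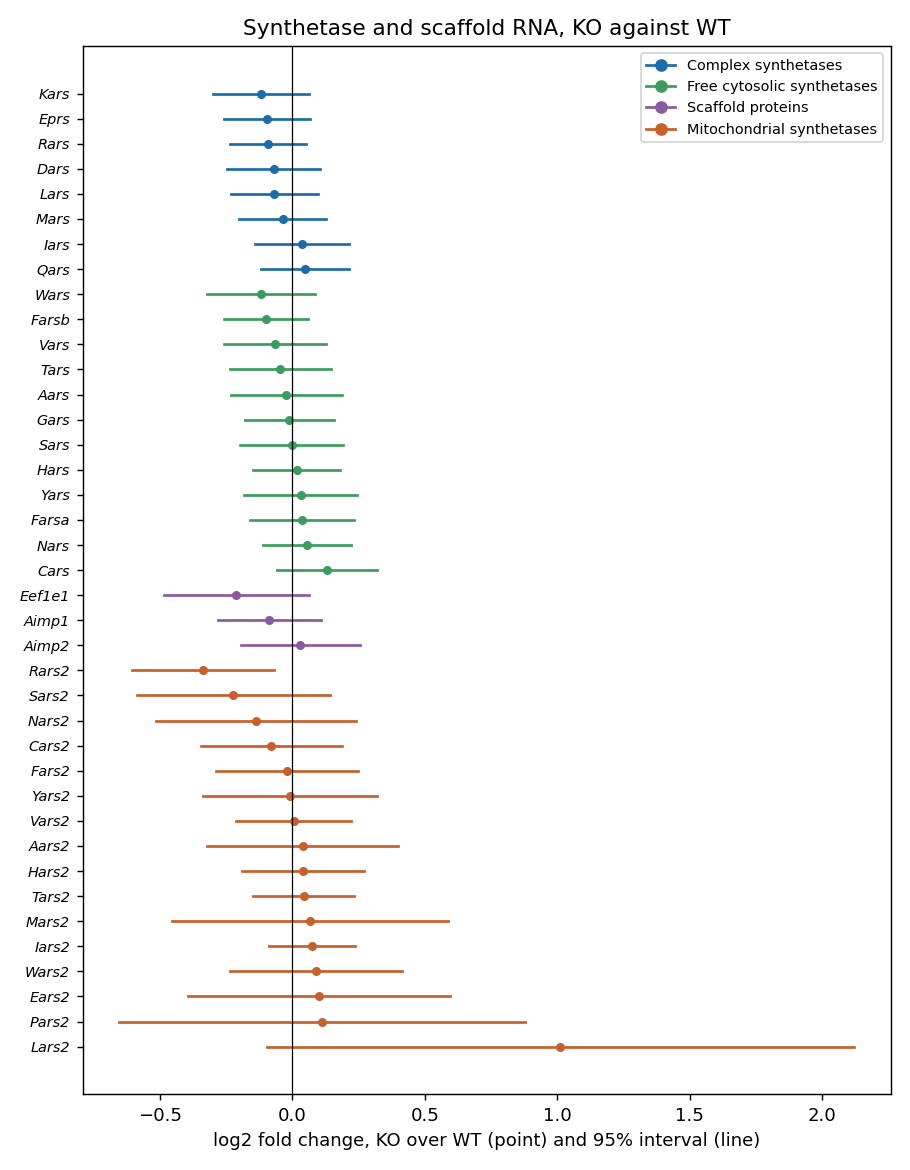
Log2 fold change of each of the 39 members, KO over WT, from edgeR (points) with 95% intervals (lines), ordered within the 4 role groups. Most points sit near 0, the Rars2 interval of -0.61 to -0.07 lies below 0, and the Lars2 interval reaches from -0.10 to 2.12.

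The synthetases differed far more in level among themselves than between genotypes. Per kilobase of exon, Nars, the asparaginyl-tRNA synthetase, was highest at 75.9 ± 4.56 CPM per kilobase in KO and 73.0 ± 3.22 in WT (SD, n = 3 each). Gars, for glycine, followed with 43.7 in KO and 44.0 in WT, then Vars, for valine, with 33.9 in KO and 35.4 in WT, and Kars, for lysine, with 32.2 in KO and 35.0 in WT. At the other end were the mitochondrial prolyl and methionyl enzymes: Pars2 at 0.371 in KO and 0.342 in WT, and Mars2 at 0.374 in KO and 0.357 in WT. The median level was 22.0 CPM per kilobase for cytosolic synthetases and 2.73 for mitochondrial ones in KO, and 22.2 and 2.91 in WT, which makes ratios of 8.05 in KO and 7.63 in WT.

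Neighbours in this order were often too close to tell apart. Of 38 pairs of adjacent members, 29 overlapped in their range over the 6 libraries, and 9 did not, among them Nars over Gars and Gars over Vars. Lengths are those of the exon union in GENCODE M21, and 8 of the top 10 members were the same with the longest transcript as the length. Eprs, the fused glutamyl and prolyl synthetase, moved most visibly, since its exon union of 18102 bases is much longer than its longest transcript of 5638 bases. Its level in KO was 13.7 CPM per kilobase by exon union and 44.0 by longest transcript.

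**Figure D2:**
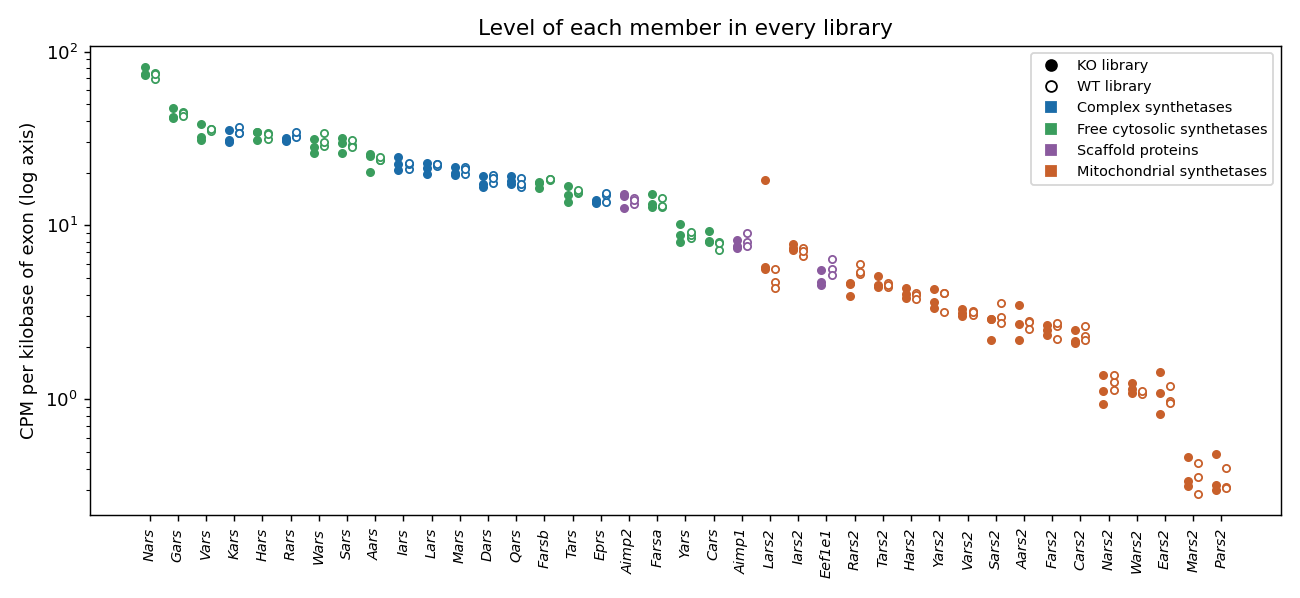
Level of every member in every library, as CPM per kilobase of exon on a log axis, with filled points for KO libraries, open points for WT libraries and colours for the role groups, in order of the mean. Cytosolic synthetases fill the upper part, mitochondrial ones the lower, and 1 filled Lars2 point, KO replicate 2, sits well above the other Lars2 points.

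For 13 amino acids the table holds a cytosolic enzyme and a separate mitochondrial one, and in each pair the mean level per kilobase was higher for the cytosolic gene. With the exon union as length, the narrowest ratio was that of tyrosine, with Yars 2.42 ± 0.371 times Yars2 in KO and 2.37 ± 0.347 times in WT. Wide ratios were those of asparagine, with Nars 67.7 ± 9.14 times Nars2 in KO and 58.5 ± 6.55 times in WT, and methionine, with Mars 56.0 ± 11.4 times Mars2 in KO and 59.8 ± 9.97 times in WT. The order depended on the length used. With the longest transcript, the mean over the 6 libraries was narrowest for leucine at 1.79, with tyrosine at 4.35, and it was 64.7 for methionine and 54.3 for asparagine. Leucine was scattered in KO, with Lars 3.70, 1.08 and 4.05 times Lars2 in the KO libraries and 4.75, 5.05 and 4.01 times in the WT libraries. The one low value was KO replicate 2, the library with the high Lars2 count described further on.

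The synthetases of the multisynthetase complex leaned slightly lower in KO without passing. Of the 8 genes, 6 were on the negative side and 2 on the positive, with a median log2 fold change of -0.069 and adjusted p values of 0.785 to 0.931. Their summed level was 968, 973 and 1036 CPM in the KO libraries and 1007, 1037 and 1053 CPM in the WT libraries. The sums overlapped, since KO replicate 3 lay above WT replicate 1.

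Kars, the lysyl-tRNA synthetase (NCBI Gene 85305, chromosome 8, 111993443 to 112011323, minus strand, GRCm38), was at 134, 139 and 158 CPM in the KO libraries and 165, 151 and 152 CPM in the WT libraries. Replicate 3 of KO stood above 2 of the WT libraries, so the groups overlapped (log2 -0.12, SE 0.0808, edgeR adjusted p = 0.785). Rars, which charges arginine tRNAs in the cytosol (NCBI Gene 104458, chromosome 11, 35808381 to 35834506, minus strand), was at 99.0, 102 and 100.2 CPM in KO and 106, 104 and 111 CPM in WT. All KO values were lower than all WT values, by a small step (log2 -0.091, SE 0.0644, edgeR adjusted p = 0.791). Eprs (NCBI Gene 107508, chromosome 1, 185363044 to 185428360, plus strand) was at 244, 247 and 254 CPM in KO and 246, 269.8 and 279.9 CPM in WT. WT replicate 1 fell among the KO libraries, and the difference was log2 -0.096 (SE 0.0725, edgeR adjusted p = 0.798).

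The remaining complex members moved less. Lars, for leucine, was at 114 ± 8.46 CPM in KO and 119.9 ± 1.83 CPM in WT (SD, n = 3 each, as for the genes that follow). Dars, for aspartate, was at 77.1 ± 5.77 CPM in KO and 81.0 ± 4.03 CPM in WT, and Mars, for methionine, at 69.7 ± 3.74 CPM in KO and 71.5 ± 3.18 CPM in WT. Each of these 3 means was a little lower in KO by less than the spread between libraries. Qars, for glutamine, was at 119 ± 6.02 CPM in KO and 115 ± 7.06 CPM in WT. Iars, for isoleucine, was at 118, 109.8 and 129.7 CPM in KO and 111, 118 and 120.2 CPM in WT. Log2 fold changes of these 5 genes ran from -0.070 to 0.049. KO replicate 1 held the lowest value for 5 of the 8 complex genes, beside 20.0% of all genes tested.

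The scaffold proteins that hold the complex gave no call either. Eef1e1, also called AIMP3 or p18 (NCBI Gene 66143, chromosome 13, 38644207 to 38659058, minus strand), was at 15.4, 14.9 and 18.1 CPM in KO and 18.3, 16.8 and 20.8 CPM in WT. KO replicate 3 lay inside the WT range (log2 -0.21, SE 0.122, edgeR adjusted p = 0.753). Aimp1, the precursor of the cytokine EMAPII as well as a scaffold, was at 42.5, 41.7 and 45.8 CPM in KO and 44.8, 50.7 and 42.5 CPM in WT. The groups overlapped here too (log2 -0.086, SE 0.0874, edgeR adjusted p = 0.845). Aimp2, the core scaffold, was at 25.1, 20.7 and 24.3 CPM in KO and 23.7, 21.9 and 23.0 CPM in WT (log2 0.030, SE 0.101, edgeR adjusted p = 0.954). KO replicate 2 had the lowest value of all 6 libraries for each of the 3 scaffold genes, beside 20.6% of all genes tested. Of the Aimp2 exon bases 29.4% overlap Eif2ak1 on the opposite strand, and whether counting used strand is not given, which leaves the Aimp2 count uncertain.

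**Figure D3:**
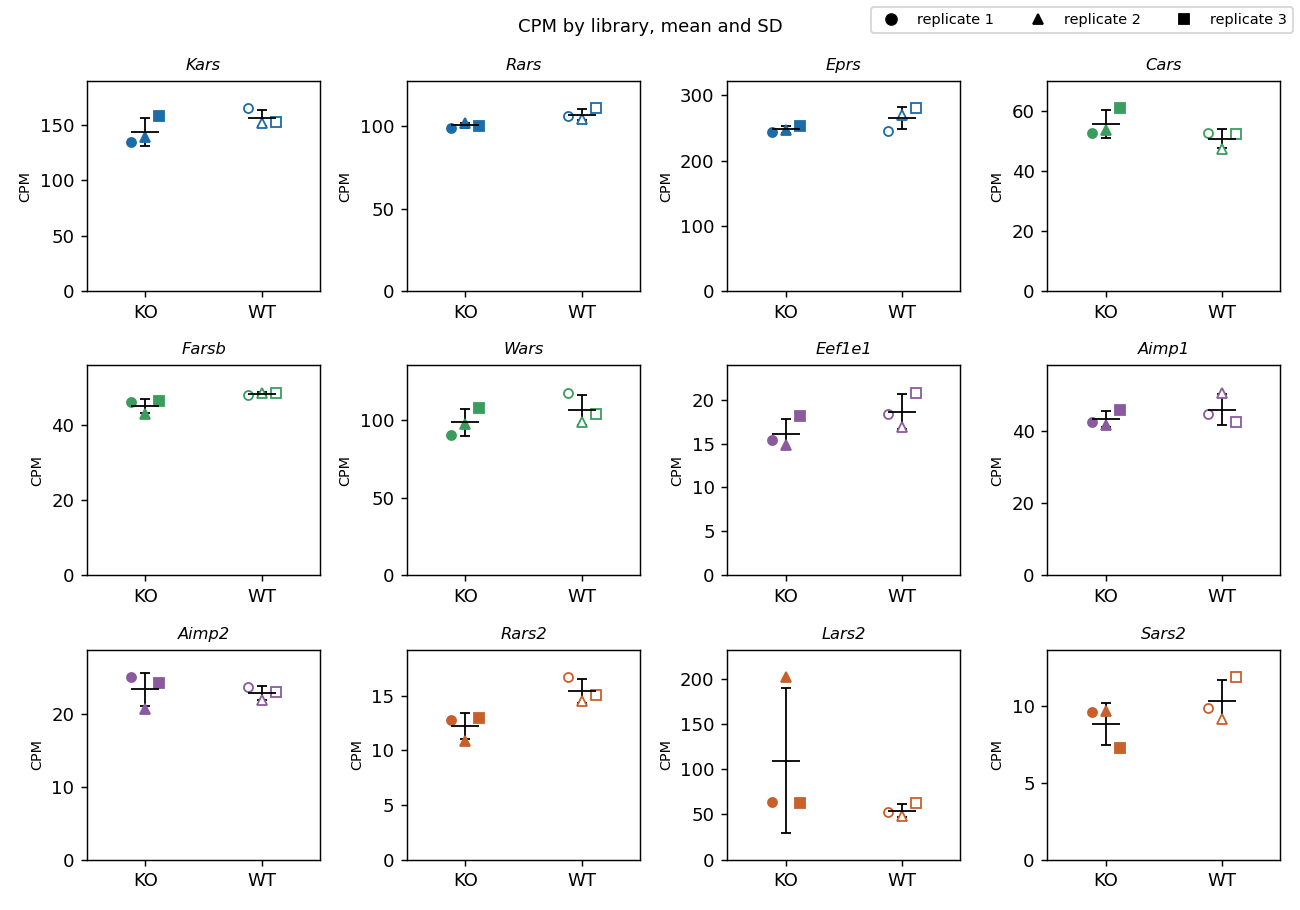
CPM in every library for the 3 members of each role group with the smallest unadjusted p, KO left (filled) and WT right (open), with the mean and SD of 3 libraries and marker shapes for replicate numbers. Rars, Farsb and Rars2 have all KO points below all WT points, Lars2 has all KO points above the WT points with KO replicate 2 at 202 CPM, and the groups overlap in the other 8 panels.

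Synthetases that act outside the complex were level between genotypes and uneven among the KO libraries. Of the 12 genes, 5 were on the positive and 7 on the negative side, with a median log2 fold change of -0.0065 and adjusted p values of 0.779 to 0.994. Cars, for cysteine (NCBI Gene 27267, chromosome 7, 143557230 to 143600090, minus strand), was at 52.6, 53.7 and 61.0 CPM in KO and 52.9, 47.3 and 52.5 CPM in WT. KO replicate 1 fell inside the WT range (log2 0.13, SE 0.0846, edgeR adjusted p = 0.779). Farsb, the beta subunit of the phenylalanyl enzyme (NCBI Gene 23874, chromosome 1, 78417975 to 78488897, minus strand), was at 46.1, 43.0 and 46.3 CPM in KO and 48.0, 48.6 and 48.6 CPM in WT. Its KO libraries were all below its WT libraries (log2 -0.10, SE 0.0704, edgeR adjusted p = 0.791), while Farsa, the alpha subunit, was at 62.3 ± 5.78 CPM in KO and 60.7 ± 4.08 CPM in WT (log2 0.037, SE 0.0876, edgeR adjusted p = 0.935). Nars, the most abundant member, was at 322, 317 and 354 CPM in KO and 302, 327 and 326 CPM in WT, with overlapping groups (log2 0.056, SE 0.0739, edgeR adjusted p = 0.879). Vars averaged 189.8 ± 21.8 CPM in KO and 199 ± 3.28 CPM in WT, Sars, for serine, 151 ± 15.3 CPM in KO and 151 ± 7.73 CPM in WT, and Hars, for histidine, 81.7 ± 5.10 CPM in KO and 80.7 ± 2.97 CPM in WT (SD, n = 3 each).

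Wars, the tryptophanyl-tRNA synthetase (NCBI Gene 22375, chromosome 12, 108860030 to 108894174, minus strand), was at 90.2, 97.5 and 108 CPM in KO and 118, 99.1 and 104 CPM in WT. The groups overlapped (log2 -0.12, SE 0.0912, edgeR adjusted p = 0.801). Its lowest library was KO replicate 1 and its highest WT replicate 1. Of the interferon gamma response genes, 11 were tested of 12 listed, and all 11 were lowest in KO replicate 1, beside 20.0% of all genes tested, and 9 were highest in WT replicate 1, beside 21.7%. All 11 had negative log2 fold changes, with a median of -0.35, 0 were called by edgeR or DESeq2, and 4 were lower at an unadjusted p under 0.05, beside 3.06% of all genes. Cxcl10, a chemokine for T cells, was at 120.3, 192 and 186 CPM in KO and 573, 246 and 331 CPM in WT, with no overlap (log2 -1.21, SE 0.315, edgeR adjusted p = 0.701). The 3 other genes of that list with the smallest p were Gbp5 (log2 -1.02) and Gbp2 (-0.59), 2 guanylate-binding proteins of host defence, and Cxcl9 (-0.54), a related chemokine. The Wars difference, with a 95% interval of -0.32 to 0.09 on the log2 scale, was smaller in size than those of these 4 genes. Since the 4 were picked by p, that comparison was close to fixed in advance. In the whole tested list, only Socs1 (log2 -0.0053) had a smaller difference than Wars.

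The free cytosolic synthetases varied together between the KO libraries. Their sum was 1485, 1409 and 1649 CPM in the KO libraries and 1518, 1515 and 1530.0 CPM in the WT libraries. The highest library was 1.17 times the lowest in KO and 1.01 times in WT. KO replicate 3 was the highest of all 6 libraries for 9 of the 12 genes, where this holds for 15.1% of all genes tested, and KO replicate 2 was the lowest for 7 of the 12, where this holds for 20.6%. The coefficient of variation was larger in KO for 11 of the 12, with a median of 9.14% in KO and 3.96% in WT, and across all genes tested it was larger in KO for 59.4%, with medians of 9.75% in KO and 8.05% in WT. The direction of the group rested on these 2 libraries: 8 of the 12 log2 fold changes were positive without KO replicate 2 and 2 of the 12 without KO replicate 3.

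**Figure D4:**
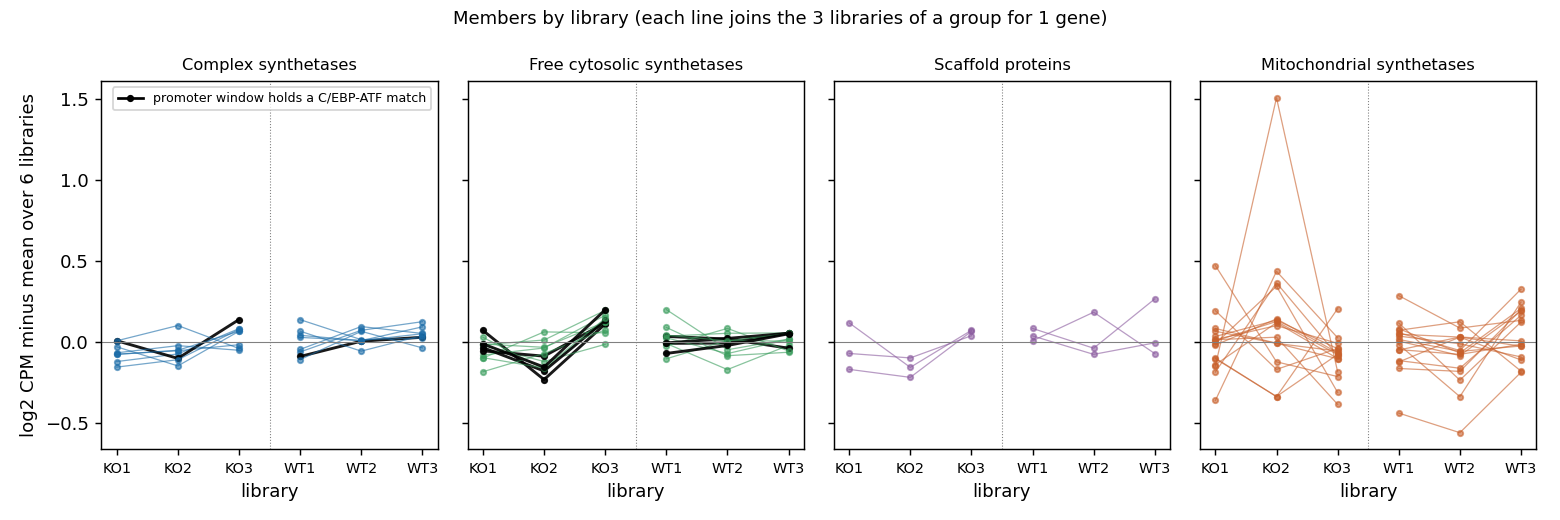
Log2 CPM of each member minus its mean over the 6 libraries, with KO libraries left of WT libraries in each panel and 1 panel per role group; black lines mark the 5 genes with a C/EBP-ATF match in the promoter window. The black lines are lowest in KO replicate 2 and highest in KO replicate 3. Most WT points of the free cytosolic synthetases lie near 0. Wars in WT replicate 1 (0.20) and Cars in WT replicate 2 (-0.17) lie furthest from it.

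Promoter windows were read for the members to describe sequences that the choice of genes had not used. RefSeq windows of GRCm38.p6, from 250 bases before to 50 bases after an annotated start site, were matched for 30 of the 39 members. Wars, Cars, Hars, Lars, Nars, Rars, Vars, Hars2 and Pars2 had no window and were not searched. The windows were searched on both strands for the C/EBP-ATF response element TGATGNAA (TTNCATCA on the other strand). This is the composite site that ATF4 and C/EBP proteins are known to bind. It was present for 5 of the 13 cytosolic synthetases with a window (38.5%), and for 0 of 14 mitochondrial synthetases and 0 of 3 scaffold genes, where 4.51% of the 27025 genes in the promoter table had a match. The 5 genes are Iars of the complex and Aars, Gars, Tars and Yars outside it. Their matches are shown because they are the sequence these genes share, with the gene's own strand read 5′ to 3′ and the matched letters in capitals.

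Iars, chr13:49682127-49682154, plus strand, match starting 8 bases after the start site: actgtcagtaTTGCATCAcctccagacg
Aars, chr8:111033704-111033763, plus strand, match starting 112 bases before the start site: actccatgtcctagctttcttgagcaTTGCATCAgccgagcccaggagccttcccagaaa
Aars, chr8:111033841-111033868, plus strand, match starting 10 bases after the start site: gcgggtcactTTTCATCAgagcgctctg
Gars, chr6:55037945-55038000, plus strand, match starting 30 bases before the start site: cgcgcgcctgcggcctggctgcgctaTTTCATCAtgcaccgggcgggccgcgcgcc
Tars, chr15:11399659-11399699, minus strand, match starting 15 bases before the start site: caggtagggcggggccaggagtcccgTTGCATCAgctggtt
Yars, chr4:129189896-129189923, plus strand, match starting 4 bases after the start site: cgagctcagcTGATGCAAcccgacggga

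The Yars match lies in the orientation of the gene and the other 5 in the opposite one. A match of these letters is a description of the window and not a site shown to be bound. The interferon gamma activated sequence TTCNNNGAA was found for 4 of the 30 members (Kars, Aars, Nars2 and Eef1e1), or 13.3%, beside 9.55% of all genes in the table. The interferon-stimulated response element was found for 1, Qars, beside 3.99%. Wars had no window, so it was not searched for either interferon motif. No 2 matches overlapped in the members' windows.

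**Figure D5:**
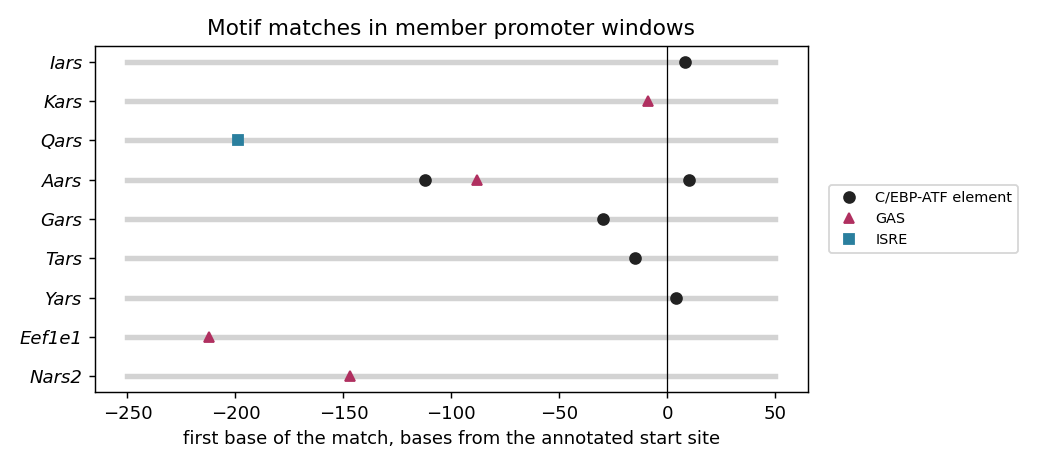
Position of each motif match in the promoter windows of the 9 members that had one, in bases from the annotated start site (vertical line), with grey bars for the window searched. The C/EBP-ATF matches of Iars, Gars, Tars and Yars and 1 of the 2 Aars matches lie within 30 bases of the start site, and the other Aars match lies 112 bases before it.

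The 5 genes with a C/EBP-ATF match shared 1 order among the libraries. Aars, for alanine (NCBI Gene 234734), was at 232, 188 and 239 CPM in the KO libraries and 219.8, 220.1 and 229.6 CPM in the WT libraries. Gars (NCBI Gene 353172) was at 132, 129 and 148 CPM in KO and 140.2, 139 and 133 CPM in WT, and Tars, for threonine (NCBI Gene 110960), was at 88.8, 80.3 and 99.7 CPM in KO and 90.6, 92.3 and 94.4 CPM in WT. In each of these, as in Iars above, KO replicate 2 was the lowest library and KO replicate 3 the highest. Yars, for tyrosine (NCBI Gene 107271), had the same order, at 52.5, 47.5 and 60.7 CPM in KO and 50.4, 52.1 and 54.8 CPM in WT. Summed, the 5 genes reached 624, 555 and 677 CPM in the KO libraries and 612, 621 and 632 CPM in the WT libraries.

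That order was seen in 5 of the 5 genes with a match, in 1 of the 8 other cytosolic synthetases with a promoter window, and in 8 of the 20 cytosolic synthetases in all, beside 5.83% of all genes tested. It was noticed after the values were seen, the genes share libraries, and no test was made of it. Between genotypes, log2 fold changes of the 5 genes ran from -0.045 to 0.036 with adjusted p values of 0.918 to 0.977 by edgeR. In Aars, 14.3% of the exon bases are shared with Exosc6 on the same strand, so part of its count is uncertain.

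Other targets of ATF4 showed a related order among the libraries. Of 23 such genes for amino acid synthesis, transport and stress, KO replicate 3 was the highest library for 15 and KO replicate 2 the lowest for 10, and both held for 8. Over all genes tested these shares were 15.1%, 20.6% and 5.83%. Asns, the asparagine synthetase, was at 42.4, 32.4 and 54.2 CPM in KO and 32.8, 39.1 and 39.03 CPM in WT, and Phgdh, the first enzyme of serine synthesis, was at 62.8, 40.7 and 95.4 CPM in KO and 74.3, 74.6 and 70.9 CPM in WT. These 2 genes, named after their values were seen, spanned the WT range on both sides in KO. Atf4 RNA itself did not follow that order: it was at 334, 365 and 338 CPM in KO and 271, 301 and 297 CPM in WT, with KO replicate 2 highest and no overlap between the groups (log2 0.26, SE 0.0742, edgeR adjusted p = 0.701). The T and NK markers were highest in KO replicate 2, the library lowest in this order, while KO replicate 3 was lowest for 0 of the 8. Of 6 fibroblast markers, 5 were tested. KO replicate 3 was highest for 3, KO replicate 2 lowest for 2, and both held for 2. Their sum was 198, 231 and 292 CPM in the KO libraries and 200, 317 and 222 CPM in the WT libraries. The order held for 0 of the 10 macrophage markers, and KO replicate 3 was lowest for 4 of them, beside 15.8% of all genes. The part of these markers in the order was not tested.

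Between genotypes the ATF4 targets gave no call. Log2 fold changes were positive for 18 of 23, with a median of 0.083, beside 49.8% positive over all genes tested. EdgeR and DESeq2 called 0, and 3 were higher in KO at an unadjusted p under 0.05, beside 3.86% of all genes. Ddit4, an inhibitor of mTORC1, was at 83.2, 64.9 and 78.0 CPM in KO and 55.6, 59.0 and 55.2 CPM in WT, with no overlap (log2 0.41, SE 0.0948, edgeR adjusted p = 0.694). Atf3, a stress-induced transcription factor, was at 492, 619 and 540.4 CPM in KO and 345, 509.7 and 406 CPM in WT, and Sesn2, a leucine sensor upstream of mTORC1, at 27.9, 25.5 and 28.2 CPM in KO and 22.7, 26.3 and 22.2 CPM in WT, and both overlapped. Without KO replicate 3, 11 of the 23 log2 fold changes were positive. Unlike Ddit4 and Atf4, the synthetases with a match had KO values on both sides of the WT values.

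Mitochondrial synthetases held the largest differences of the 39 members in both directions, and none passed. Of the 16 genes, 10 were on the positive and 6 on the negative side, with a median log2 fold change of 0.041, or 0.040 without Lars2. Rars2, which charges the mitochondrial arginine tRNA (NCBI Gene 109093, chromosome 4, 34614957 to 34660167, plus strand), was at 12.8, 10.9 and 13.0 CPM in the KO libraries and 16.7, 14.6 and 15.1 CPM in the WT libraries. All KO libraries lay below all WT libraries. The fold change was 0.791 (log2 -0.34, SE 0.120, 95% interval -0.61 to -0.07), with an unadjusted p of 0.0183 and an adjusted p of 0.701 by edgeR. With each library left out in turn its log2 fold change stayed between -0.38 and -0.26.

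Rars and Rars2, the 2 enzymes for arginine, were the only pair of cytosolic and mitochondrial counterparts in which KO and WT libraries did not overlap, with KO lower, for both genes. The ratio of Rars to Rars2 per kilobase was 6.65, 8.07 and 6.61 in the KO libraries and 5.43, 6.15 and 6.31 in the WT libraries. It was higher in every KO library than in any WT library, so the lower KO level was the more marked in Rars2. This pair was singled out after the values were seen.

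Lars2, the mitochondrial leucyl-tRNA synthetase (NCBI Gene 102436, chromosome 9, 123366927 to 123462666, plus strand), was at 64.1, 202 and 62.6 CPM in the KO libraries and 52.5, 48.2 and 62.5 CPM in the WT libraries. KO replicate 2 alone was far above the rest, and KO replicate 3 and WT replicate 3 were almost equal. The log2 fold change was 1.01 (SE 0.465, 95% interval -0.10 to 2.12, edgeR adjusted p = 0.725), and without KO replicate 2 it was 0.22 (edgeR adjusted p = 0.824). Relative to library totals without TMM scaling, Lars2 in KO replicate 2 was 3.41 times the mean of the other 5 libraries. That was rank 1 of the 10784 genes with at least 30 counts in every library. The next gene was Cd2, a T and NK cell marker, at 3.03 times.

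Sars2, for serine (NCBI Gene 71984, chromosome 7, 28741992 to 28753871, plus strand), was at 9.56, 9.66 and 7.24 CPM in KO and 9.85, 9.12 and 11.9 CPM in WT. WT replicate 2 lay among the KO values (log2 -0.22, SE 0.163, edgeR adjusted p = 0.792). Pars2, for proline and the least abundant member per kilobase, was at 1.51, 0.997 and 0.936 CPM in KO and 0.969, 0.957 and 1.25 CPM in WT. Its interval, -0.65 to 0.88 on the log2 scale, was among the widest, and a 1.5-fold difference in either direction lay inside it.

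The other 12 mitochondrial genes had log2 fold changes from -0.14 (Nars2, for asparagine) to 0.10 (Ears2, for glutamate). Iars2, for isoleucine, was at 66.5 ± 2.68 CPM in KO and 63.1 ± 3.37 CPM in WT, and Tars2, for threonine, at 32.5 ± 2.51 CPM in KO and 31.5 ± 0.807 CPM in WT (SD, n = 3 each). Vars2, for valine, was at 17.2 ± 0.737 CPM in KO and 17.1 ± 0.489 CPM in WT, and Wars2, for tryptophan, at 6.90 ± 0.424 CPM in KO and 6.49 ± 0.140 CPM in WT. Aars2, for alanine, was more scattered in KO, at 13.3 ± 3.04 CPM in KO and 12.9 ± 0.769 CPM in WT. Of the Iars2 exon bases 24.2%, and of the Fars2 exon bases 10.7%, overlap genes on the opposite strand, and those 2 counts are uncertain for the reason given for Aimp2. Hars and Hars2 lie head to head and share 195 exon bases on opposite strands, 7.97% of Hars and 4.56% of Hars2.

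Among the libraries the mitochondrial genes did not follow the cytosolic order. KO replicate 2 was the highest library for 8 of the 16, beside 24.8% of all genes tested. The lowest was KO replicate 3 for 5 of the 16, beside 15.8%. None of the 16 had the order of the 5 genes above, with KO replicate 3 highest and KO replicate 2 lowest. Their sum was 299.7, 451 and 288 CPM in the KO libraries and 289, 282 and 303 CPM in the WT libraries, and without Lars2 it was 236, 248 and 226 CPM in KO and 236, 234 and 241 CPM in WT. Without KO replicate 2, 6 of the 16 log2 fold changes were positive. The direction of the group therefore rested on that library.

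By class the medians were as small. For the cytosolic genes the median log2 fold change was -0.036 over 9 of class I and -0.016 over 10 of class II, with Eprs, which holds an enzyme of each class, left out. For the mitochondrial genes it was 0.067 over 9 of class I and 0.040 over 7 of class II.

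The other genes of tRNA charging and delivery were as level as the members. Of 20 listed (amidotransferase subunits, editing and recycling factors, elongation factors and others), 19 were tested, with 6 on the positive and 13 on the negative side and a median log2 fold change of -0.037. EdgeR and DESeq2 called 0, and 0 had an unadjusted p under 0.05. Eef1d, a subunit of the exchange factor that reloads the tRNA-delivering factor eEF1A, was at 117, 113 and 135 CPM in KO and 137, 137 and 137 CPM in WT, with all KO values lower (log2 -0.17, SE 0.0801, edgeR adjusted p = 0.719). Eef1g, another subunit of it, was at 440.2, 445 and 504 CPM in KO and 510.1, 498 and 482 CPM in WT and overlapped. Mtfmt, which formylates the mitochondrial initiator tRNA, was at 5.97, 7.56 and 7.98 CPM in KO and 5.15, 7.05 and 5.38 CPM in WT, and Sepsecs, which makes selenocysteine on its tRNA, at 4.99, 5.51 and 5.82 CPM in KO and 6.73, 5.04 and 6.88 CPM in WT. Tarsl2, another threonyl enzyme of the cytosol, had a log2 fold change of 0.053 (SE 0.160).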

How the data were processed

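The authors deposited raw counts per gene for 6 polyadenylated RNA libraries made with a stranded kit, per the labels' protocols. The submitters' processing notes name the build mm10 and the tools Trimmomatic, HISAT2, Cufflinks and HTSeq. The annotation, the strand setting and the handling of multiply mapped reads are not given in the sources used here. Genes were filtered with filterByExpr (minimum count 10, minimum total 15), scaled by TMM and tested, KO over WT, with the quasi-likelihood test of edgeR 4.0.16 (R 4.3.3, Benjamini-Hochberg adjustment over 12136 genes, threshold 0.05). CPM use the TMM-scaled totals. Of the 21878 genes, 6323 had no read. Every pair of libraries differed beyond sampling noise (chi-square per degree of freedom of at least 7.93). The fitting was tested on simulated data in which every gene had the same spread. It recovered 74.6% of 1.5-fold changes, with 11 false among 191 calls. Spread differed between genes in the real libraries, so these rates are not carried over to them.

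Symbols were matched to GENCODE M21 on GRCm38 for coordinates, lengths and overlaps, and to RefSeq (GRCm38.p6) for promoters. Of 32 member windows, 27 matched a transcript on the gene's strand after the start site and 0 on the other. Protein identity between paired enzymes had been planned and was not computed.

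The members, lists and tests were chosen with earlier results of these data known. Full values are given for the 3 members of each role group with the smallest p, for Wars, and for the members highest and lowest per kilobase. From each further list, the 4 genes with the smallest p are named. One gene of these lists is not reported here. Genes with a motif match, and those said to be chosen after their values were seen, were added. No test was made on a list or a sum. Alternatives were other scaling factors, other filters, DESeq2 1.42.0, limma-voom (limma 3.58.1), a replicate block, another length and each library left out.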

Additional observations from a re-analysis of the deposited data

How the results depend on the processing

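No member was called under any alternative run. The count of all genes called lower in KO was 1 with RLE factors, upper-quartile factors, library totals alone, no filter, limma-voom or the replicate block, 0 with a mean of at least 1 CPM, 21 with DESeq2 and 0 to 2 with a library left out. Genes called higher were 8 with DESeq2 and 0 to 3 with a library left out. Trmt61a was not called with the mean of at least 1 CPM (log2 -1.81, adjusted p = 0.0583), limma-voom (-1.81, adjusted p = 0.0522) or the replicate block (-1.82, adjusted p = 0.103), and lay between -1.94 and -1.69 with a library left out (adjusted p of 0.0249 to 0.314). Sars changed sign, at 0.00186 with upper-quartile factors, 0.00319 with totals, 0.00289 with no filter and 0.00607 with the 1 CPM filter, as did Yars2 at 0.000326 with the last. The cause was not tested.

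With a library left out, 20 members kept their sign and 19 did not. Ranges of log2 fold changes were -0.082 to 0.078 for Aars, -0.038 to 0.096 for Farsa, -0.073 to 0.029 for Gars, -0.010 to 0.068 for Hars, -0.025 to 0.092 for Iars, -0.065 to 0.074 for Sars, -0.13 to 0.028 for Tars and -0.065 to 0.11 for Yars. They were -0.14 to 0.19 for Aars2, -0.16 to 0.0013 for Cars2, -0.12 to 0.27 for Ears2, -0.11 to 0.048 for Fars2, -0.014 to 0.092 for Hars2, -0.12 to 0.22 for Mars2, -0.13 to 0.25 for Pars2, -0.021 to 0.088 for Tars2, -0.029 to 0.036 for Vars2, -0.11 to 0.070 for Yars2 and -0.023 to 0.11 for Aimp2. The scaffold median was -0.13 to -0.0035, and -0.0035 was the value without WT replicate 2. The ratio of median levels per kilobase, cytosolic to mitochondrial, was 8.66 in KO and 8.72 in WT with longest transcripts.

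Same-numbered KO and WT libraries did not deviate together (correlations of -0.06, -0.09 and -0.11), so the numbers are not used as pairs. The block changed no member's call. With 3 libraries a group, the interval was widest for Lars2, which had 957 to 3853 counts a library. Pars2 (19 to 29 counts), Mars2 (64 to 100) and Ears2 (82 to 141) came next. How far depth or library spread set these widths was not tested.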
